A study of Mus musculus with 9 samples.

Results

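Adipocyte transcripts were followed through 9 mouse lung libraries by 10 genes: Adipoq, Cfd, Retn, Plin1, Plin4, Cidec, Pnpla2, Lipe, Fabp4 and Ucp1. Each symbol matched 1 row of the deposited table, so 10 of its 21930 protein-coding genes are described. Of these, 9 had reads in every library and passed the filter on low counts, and Ucp1 did not. The libraries fall into 3 groups of 3 mice, labelled as male C57BL/6 animals of 6 to 8 weeks, all anaesthetized with tribromoethanol. Control mice received saline in the trachea and LPS mice received lipopolysaccharide, a component of bacterial outer membranes, at 2 mg/kg by the same route. LPS mice were then gavaged with vehicle, and mice of the third group (libraries RSBD 1 to 3) received LPS and then oral Renshen Baidu Powder (RSBD), a herbal decoction. Lungs were taken on day 5 after LPS. Whether control mice were gavaged with vehicle is not stated separately for that group.

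White adipocytes store triglyceride in a single large droplet, coat it with perilipins, release fatty acids from it through a chain of lipases and secrete hormones such as adiponectin. Brown adipocytes hold many small droplets and burn fatty acids for heat through the uncoupling protein of their mitochondria, encoded by Ucp1. The lung itself holds few adipocytes, while fat lies next to it in the mediastinum and around the hilum. Several of the 10 genes are also known from other cells: Fabp4 from capillary endothelium and macrophages, and the lipases Pnpla2 and Lipe from many tissues.

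Libraries held between 26959662 and 36113905 counts. Levels are given as CPM (counts scaled to library size by the TMM method) where libraries are compared and as TPM (the deposited values, which account for transcript length) where genes are compared. The lung marker genes fixed for the check (9, among them Sftpc, Ager and Scgb1a1) were present, with Sftpc, the surfactant protein C gene, at 6640 to 11400 CPM. All mice are labelled male, but chromosome Y genes had 6 to 9 reads in each control library, against 7511 to 10918 in each LPS or RSBD library. Treatment and the presence of chromosome Y transcripts therefore cannot be told apart in any comparison with control. In whole lung RNA, fewer cells of a type and less RNA per cell cannot be told apart either.

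The genes differ in the sequence just before their start sites, and 5 of these stretches are shown because their genes, picked with their values known, sat at opposite ends of the variation described below. RefSeq promoter sequences (GRCm38.p6, 250 bases before to 50 bases after a start) were found for 9 of the 10 genes, in 11 entries. Fabp4 had no entry. The last 100 bases before the start are printed 5′ to 3′ on the strand of the gene, with CG dinucleotides in capitals.
Adipoq, chr16:23146436-23146535, plus strand: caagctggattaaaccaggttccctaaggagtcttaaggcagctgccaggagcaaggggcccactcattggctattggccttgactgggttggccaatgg
Cfd, chr10:79890753-79890852, plus strand: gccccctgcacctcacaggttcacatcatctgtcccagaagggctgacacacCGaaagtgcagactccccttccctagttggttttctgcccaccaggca
Plin1, chr7:79732777-79732876, minus strand: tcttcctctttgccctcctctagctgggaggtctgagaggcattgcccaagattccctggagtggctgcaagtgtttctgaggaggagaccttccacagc
Retn, chr8:3655670-3655769, plus strand: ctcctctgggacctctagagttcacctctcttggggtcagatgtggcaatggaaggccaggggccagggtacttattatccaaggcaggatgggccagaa
Pnpla2, chr7:141455088-141455187, plus strand: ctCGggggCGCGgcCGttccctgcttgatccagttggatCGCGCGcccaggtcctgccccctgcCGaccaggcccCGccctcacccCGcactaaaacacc

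Over the whole window of 300 bases, Adipoq had 0 CG dinucleotides and Cfd, Plin1 and Retn had 2 each, against 18 for Pnpla2 and a median of 7.0 over 32851 RefSeq promoter entries. Of all entries, 5.43% had no CG and 23.3% had at most 2. Lipe had an entry with 19 and a second with 2, Ucp1 had 15, Plin4 7, and the Cidec entries 6 and 7. The letters CCAAT, on either strand, were found in the windows of Adipoq and Plin4 (2 of 11 entries) and in 37.4% of all entries. The CG count of a stretch did not order the genes by their variation: an entry of Cidec and the second entry of Lipe also held 1 CG in their 100 bases, as Cfd did, and the levels of both genes were steady.

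Within a library the genes differed widely in level. By median TPM over the 9 libraries, Pnpla2 (67.9) and Lipe (66.2) were highest, followed by Fabp4 (18.5), Cfd (12.4), Cidec (10.2), Plin4 (3.81), Adipoq (1.52), Retn (1.2), Plin1 (1.18) and Ucp1 (0.0). Of neighbours in this order, only Lipe and Fabp4, and Plin1 and Ucp1, had TPM ranges that did not overlap. Cidec lay above Plin4 in 9 of 9 libraries, while Pnpla2 exceeded Lipe in 6 of 9. Pnpla2 and Lipe, known from many tissues, thus had high and steady levels, and Adipoq, Plin1 and Retn had low and variable ones. The highest library exceeded the lowest 16.4-fold in CPM for Adipoq, 15-fold for Plin1, 13.5-fold for Cfd and 6.16-fold for Retn, but 1.37-fold for Pnpla2, 1.66-fold for Cidec and 1.75-fold for Lipe.

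**Figure D1:**
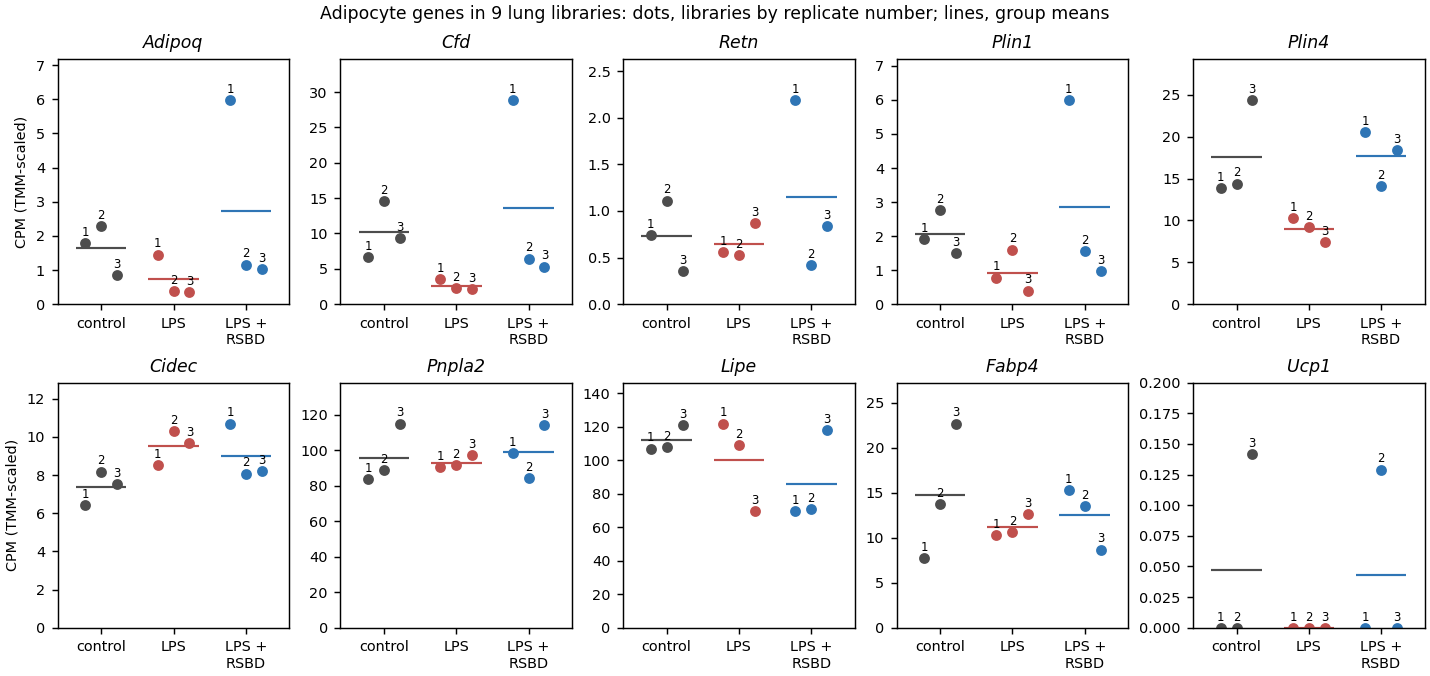
CPM of each of the 10 genes (vertical axes, each from 0) in control, LPS and LPS plus RSBD libraries, where dots are libraries marked with their replicate number and lines are group means. RSBD 1 stands above the other 8 libraries for Adipoq (5.98 CPM), Cfd (28.9), Retn (2.19) and Plin1 (6.0), and by little for Cidec (10.7 against at most 10.3). Pnpla2 stays between 83.7 and 115 CPM in all libraries.

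The secreted products were led by RSBD 1. Adipoq (ENSMUSG00000022878, chromosome 16, 23146536 to 23158028 on mm10) encodes adiponectin, the most abundant hormone of fat. It measured 1.79, 2.29 and 0.854 CPM in control libraries 1 to 3, 1.45, 0.392 and 0.363 in LPS 1 to 3 and 5.98, 1.16 and 1.02 in RSBD 1 to 3. RSBD 1 was the highest library and LPS 2 and LPS 3 were the lowest, and the groups overlapped in every comparison. These levels rest on few reads, from 10 in LPS 3 to 218 in RSBD 1.

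Cfd (chromosome 10, 79890853 to 79892655) encodes complement factor D, or adipsin, the protease that starts the alternative complement pathway and is made largely by fat. Its levels were 6.69, 14.6 and 9.32 CPM in control, 3.53, 2.22 and 2.14 in LPS and 28.9, 6.45 and 5.31 in RSBD libraries. Every LPS library lay below every control and every RSBD library. Retn (chromosome 8, 3655770 to 3660110) encodes resistin, a hormone that mouse adipocytes secrete. It measured 0.739, 1.11 and 0.356 CPM in control, 0.557, 0.522 and 0.872 in LPS and 2.19, 0.42 and 0.836 in RSBD libraries. Its groups overlapped in every comparison, and RSBD 1 was again the highest library.

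Of the droplet coat genes, Plin1 had the peak in RSBD 1 that Adipoq had. Cidec was highest there too, but only by little (10.7 against at most 10.3 CPM). Plin4 was highest in control 3, with RSBD 1 next (20.6 CPM). Plin1 (chromosome 7, 79720218 to 79732903) encodes perilipin 1, which guards the adipocyte droplet against lipases. It measured 1.9, 2.77 and 1.49 CPM in control, 0.78, 1.6 and 0.4 in LPS and 6.0, 1.55 and 0.981 in RSBD libraries. RSBD 1 was highest and LPS 3 lowest. TPM per CPM of Plin1 ranged from 0.563 to 1.16 between libraries. GENCODE M21 lists 7 coding transcripts of this gene, of 511 to 2817 bases, and the lengths behind the deposited TPM values are not known here.

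Plin4 (ENSMUSG00000002831, chromosome 17, 56100591 to 56109803) encodes perilipin 4, a coat protein of small new droplets that muscle and heart also make. It measured 13.9, 14.4 and 24.4 CPM in control, 10.3, 9.24 and 7.41 in LPS and 20.6, 14.1 and 18.4 in RSBD libraries. All LPS libraries lay below all others, and control 3 was the highest library. Cidec (chromosome 6, 113424634 to 113435760) encodes the droplet fusion protein that gives white adipocytes their single large droplet. It measured 6.44, 8.18 and 7.51 CPM in control, 8.54, 10.3 and 9.67 in LPS and 10.7, 8.07 and 8.22 in RSBD libraries. All LPS libraries lay above all control libraries, the opposite order to that of Plin4 and Cfd. The TPM ratio of Cidec to Plin1 was 4.19 to 6.24 in control, 10.7 to 45.6 in LPS and 2.74 to 14.5 in RSBD libraries.

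The lipases and the fatty acid carrier did not share the peak of RSBD 1. Pnpla2 (chromosome 7, 141455198 to 141460743) encodes adipose triglyceride lipase, which removes the first fatty acid of a triglyceride. It measured 83.7, 88.8 and 115 CPM in control, 90.6, 91.4 and 97.1 in LPS and 98.5, 84.3 and 114 in RSBD libraries. Lipe (chromosome 7, 25379527 to 25398710) encodes hormone-sensitive lipase, which acts on the diglyceride that remains. Its values were 107, 108 and 121 CPM in control, 122, 109 and 69.9 in LPS and 69.6, 70.7 and 118 in RSBD libraries. RSBD 1 was the lowest library for Lipe, and LPS 3 and RSBD 2 were close to it. Fabp4 (chromosome 3, 10204088 to 10208576) encodes the fatty acid carrier of adipocytes. It measured 7.74, 13.7 and 22.7 CPM in control, 10.3, 10.6 and 12.6 in LPS and 15.3, 13.5 and 8.69 in RSBD libraries, with its lowest and highest value both in the control group. For the 12 capillary endothelial markers, which mark cells that also hold Fabp4, the summed level was 3820 to 4350 CPM in control, 3910 to 4760 in LPS and 4000 to 4410 in RSBD libraries. Their part in the Fabp4 values was not tested.

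Ucp1 (chromosome 8, 83290352 to 83298452) was at the edge of detection. It had 4 reads in control 3, 4 in RSBD 2 and 0 in the other 7 libraries. In RSBD 1, the library with the most Adipoq reads (218), 0 reads of Ucp1 allow a level of up to 0.0823 CPM by a floor of 3 reads. The exact Poisson 95% interval is wider and reaches 3.69 reads for a count of 0. For 4 reads it runs from 1.09 to 10.2 reads. These limits allow for counting error alone, with reads taken as independent, whereas values of 2 outnumbered values of 1 in the count table (2989 against 1349).

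**Figure D2:**
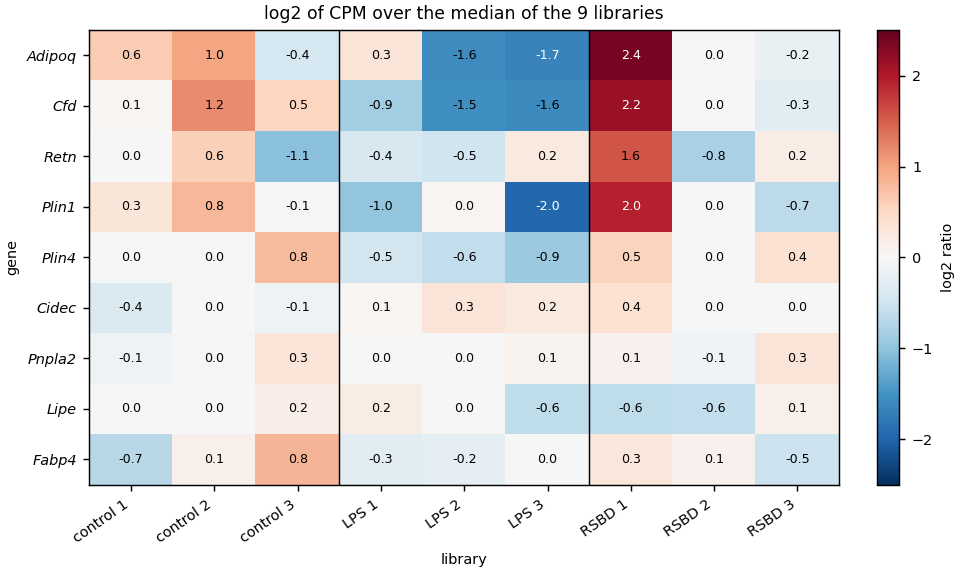
Log2 of CPM over the gene's own median of the 9 libraries, for the 9 genes that passed the filter (rows) in each library (columns, with lines between the groups). The red cells of RSBD 1 reach 2.4 for Adipoq and 2.2 for Cfd, the blue cells of LPS 3 reach -2.0 for Plin1 and -1.7 for Adipoq, and the rows of Pnpla2 and Cidec stay pale.

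LPS lungs were compared with control lungs to ask which transcripts differ after the injury. Plin4 fell, from 17.6 ± 5.91 to 8.97 ± 1.44 CPM (mean ± SD, n = 3), a log2 fold change of -0.97 ± 0.24 (SE; edgeR adjusted p = 0.0265), lower in 3 of 3 LPS libraries than in any control. It was the single gene called of the 9 tested, where 17.4% of all 15636 genes tested were called (adjusted p under 0.05), 8.79% higher and 8.63% lower. Cfd measured 10.2 ± 4.06 and 2.63 ± 0.778 CPM, a difference of -1.96 ± 0.64 that did not pass (edgeR adjusted p = 0.0646). Adipoq (-1.17 ± 0.81, adjusted p = 0.339) and Plin1 (-1.14 ± 0.71, adjusted p = 0.282) had wider errors and did not pass. Cidec gave 0.37 ± 0.17 (adjusted p = 0.161). LPS and control libraries were fully separate for 3 of these 9 genes, 1 higher (Cidec) and 2 lower (Plin4 and Cfd), where 38% of all genes did not overlap, 18.6% higher and 19.5% lower. Fabp4 (-0.40 ± 0.35), Retn (-0.19 ± 0.64), Lipe (-0.16 ± 0.24) and Pnpla2 (-0.04 ± 0.14) did not pass either, with adjusted p from 0.448 to 0.866. The median of the 9 was -0.4, against -0.01 over all genes.

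The call of Plin4 was lost without control 3 (adjusted p = 0.0769), LPS 2 (0.083) or LPS 3 (0.0848). Cfd was called without RSBD 1, which left its difference at -1.96 and narrowed its SE to 0.32 (edgeR adjusted p = 0.00852), since the 3 groups share an estimate of spread. For the 13 cardiac genes, whose tissue also makes Plin4, the median difference was -0.82. Single cardiac genes ran from -4.43 ± 1.37 (Nppa) to 2.13 ± 1.29 (Myl3). Of the 13, 1 was called as lower, where 8.63% of all genes tested were. It was the giant sarcomere protein gene Ttn (-1.87 ± 0.48, edgeR adjusted p = 0.0324). The part of cardiac transcripts in the Plin4 values was not tested. On the genome, Plin4 overlaps Hdgfl2 on the opposite strand, by 17 exonic bases (0.294% of those of Plin4). Hdgfl2 fell by 0.33 (adjusted p = 0.0245). How the authors' counting used strand is not stated.

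LPS plus RSBD lungs were compared with LPS lungs to ask what the decoction changed. No member was called, and 0 of 15636 genes (0%) were called by edgeR, with 1473 at an unadjusted p under 0.05, 153 called by DESeq2 and 1 by limma on log2(TPM + 1). Cfd measured 2.63 ± 0.778 CPM in LPS and 13.6 ± 13.3 CPM in RSBD libraries, a difference of 2.37 ± 0.65 (edgeR adjusted p = 0.391). Plin4 measured 8.97 ± 1.44 and 17.7 ± 3.32 CPM, a difference of 0.98 ± 0.24 (edgeR adjusted p = 0.351, DESeq2 adjusted p = 0.0236). The cardiac genes had a median of 1.45 here, with 0 of 13 called. For Cfd and Plin4 the 3 RSBD libraries lay above the 3 LPS libraries, as in 7.18% of all genes, and 12.6% of all genes did not overlap in either direction. Adipoq (1.90 ± 0.81), Plin1 (1.62 ± 0.70) and Retn (0.83 ± 0.63) did not pass (adjusted p = 0.517, 0.525 and 0.724). For Pnpla2 (0.09 ± 0.14), Fabp4 (0.16 ± 0.35), Cidec (-0.08 ± 0.17) and Lipe (-0.22 ± 0.24) adjusted p ran from 0.83 to 0.927. This comparison and the preceding one share the LPS libraries, so opposite signs in them are not separate observations.

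A single library carried much of these differences. Without RSBD 1, the difference between LPS plus RSBD and LPS was 0.58 ± 0.66 for Adipoq, 0.44 ± 0.57 for Plin1, -0.06 ± 0.61 for Retn and 1.16 ± 0.35 for Cfd (edgeR adjusted p from 0.858 to 0.995). For Plin4 it was 0.86 ± 0.27 (adjusted p = 0.858), close to the value with all libraries.

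Between LPS plus RSBD and control lungs, none of the 9 was called, where 3.7% of all genes were, and 0 of the 9 had groups that did not overlap, against 30.4% of all genes. The differences were 0.73 ± 0.76 for Adipoq, 0.65 ± 0.62 for Retn, 0.48 ± 0.67 for Plin1, 0.41 ± 0.60 for Cfd and 0.01 ± 0.24 for Plin4 (edgeR adjusted p = 0.612, 0.575, 0.714, 0.724 and 0.982). Without RSBD 1 the first 4 turned to -0.59, -0.24, -0.70 and -0.80. The remaining genes gave 0.29 ± 0.17 (Cidec), 0.05 ± 0.14 (Pnpla2), -0.24 ± 0.35 (Fabp4) and -0.38 ± 0.24 (Lipe), with adjusted p from 0.35 to 0.865.

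**Figure D3:**
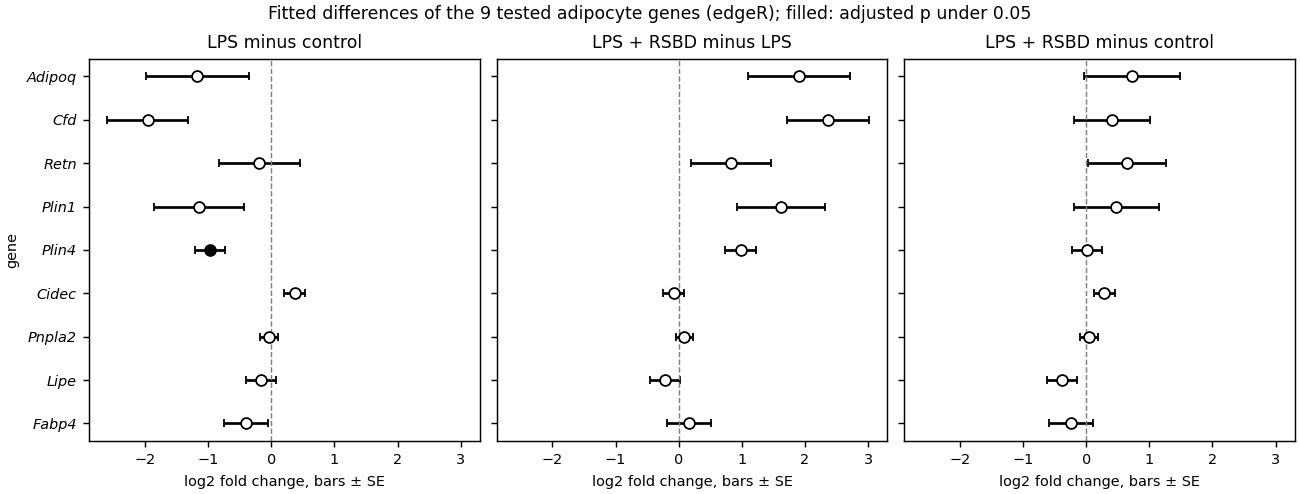
Fitted log2 fold changes (horizontal axes) of the 9 tested genes in the 3 comparisons, with bars of 1 SE, from edgeR. Plin4 in LPS against control is the filled point (adjusted p = 0.0265), and bars are widest for Adipoq, Plin1, Retn and Cfd, whose SE lies between 0.60 and 0.81.

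RSBD 1 was also the highest library for some other adipocyte genes. Among 28 genes listed as markers of white adipocytes (with 9 of the members), 26 were tested, and 13 of these (50%) had their highest CPM in RSBD 1, as had 9.09% of all tested genes. The members account for 5 of the 13, and of the 17 tested genes of the list that are not members, 8 (47.1%) were highest in RSBD 1. RSBD 1 was the lowest library for 2 of the 26, as for 6.71% of all tested genes. The genes described next were all highest in RSBD 1, so they do not stand for the whole list. Pck1, which makes the glycerol backbone for triglyceride in fat, had 108 reads there, 5, 5 and 31 in control 1 to 3, 13 and 30 in RSBD 2 and 3 and 0 in every LPS library. Thrsp, a regulator of fatty acid synthesis, measured 6.72 CPM in RSBD 1 and 1.52 to 4.05 in the others. Lep, the leptin gene, had 6 reads in RSBD 1, 3 each in control 1, control 2 and LPS 1, and 0 in the other 5 libraries. Lep failed the filter on low counts, and RSBD 1 was the deepest library (36113905 counts). No difference between libraries can be read from so few reads. Car3, a carbonic anhydrase abundant in adipocytes and slow muscle that was chosen after its values were seen, measured 36.1 CPM in RSBD 1 and 1.37 to 12.0 elsewhere.

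The summed TPM of Adipoq, Cfd, Plin1 and Retn, a group formed after the values were seen, was 73.0 in RSBD 1. It was 18.3, 38.0 and 22.3 in control, 11.3, 6.58 and 5.86 in LPS libraries and 15.6 and 13.5 in RSBD 2 and 3. Cfd gave most of this sum, 56.4 TPM in RSBD 1, where Adipoq gave 8.04, Plin1 4.41 and Retn 4.13. The sum over all 28 white adipocyte genes did not peak in RSBD 1, at 874 TPM there and 688 to 971 in the other libraries. Ces1d, a carboxylesterase that the lung itself makes, took 58.4% to 68.7% of that sum. Without Ces1d, a choice made after seeing the data, RSBD 1 was still not the highest library. The sum was then 381 TPM in control 3, 363 in RSBD 1 and 238 to 342 in the others. Within libraries, the ratio of Cfd to Adipoq in TPM ran from 3.56 in LPS 1 to 15.9 in control 3, and that of Pnpla2 to Adipoq from 8.26 in RSBD 1 to 157 in LPS 3.

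Transcripts of another tissue were high in the same library. The 13 cardiac muscle genes, which heart and the muscle sleeve of pulmonary veins express, summed to 745 CPM in RSBD 1. They summed to 151, 280 and 529 CPM in control, 126, 184 and 157 in LPS and 376 and 204 in RSBD 2 and 3, and none of the 13 genes was at 0 in all libraries. Myh6, the atrial myosin heavy chain, measured 219 CPM in RSBD 1, 152 in control 3 and 14.5 to 96.6 in the others. Control 3 came next to RSBD 1 in cardiac transcripts. It was the highest library for Plin4, Fabp4 and Pnpla2, but had 0.854 CPM of Adipoq and 1.49 of Plin1, below control 1 and control 2. Skeletal muscle genes summed to 14.6 CPM in RSBD 1 and 3.71 to 9.87 in the others. Neutrophil genes (13) summed to 1050 CPM in RSBD 1 and 762 to 7740 in the others, and alveolar macrophage genes (12) to 969 and 1280 to 3960. The part of these cells in the adipocyte values was not tested. In all, 84 of 15008 genes (0.56%) reached 4 times the median of the other 8 libraries in RSBD 1. Of the white list, 3 of 23 genes did: Pck1 (rank 6), Adipoq (rank 40) and Cfd (rank 54). Most of the 84 were thus not adipocyte genes. Krt15 (18.4-fold), Krt5 (14.8-fold) and Bpifa1 (6.93-fold), on neither the white nor the cardiac list, were among them, as was Myh6 (6.34-fold). In the other libraries 18 to 94 genes passed the same limit, none of them a member.

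**Figure D4:**
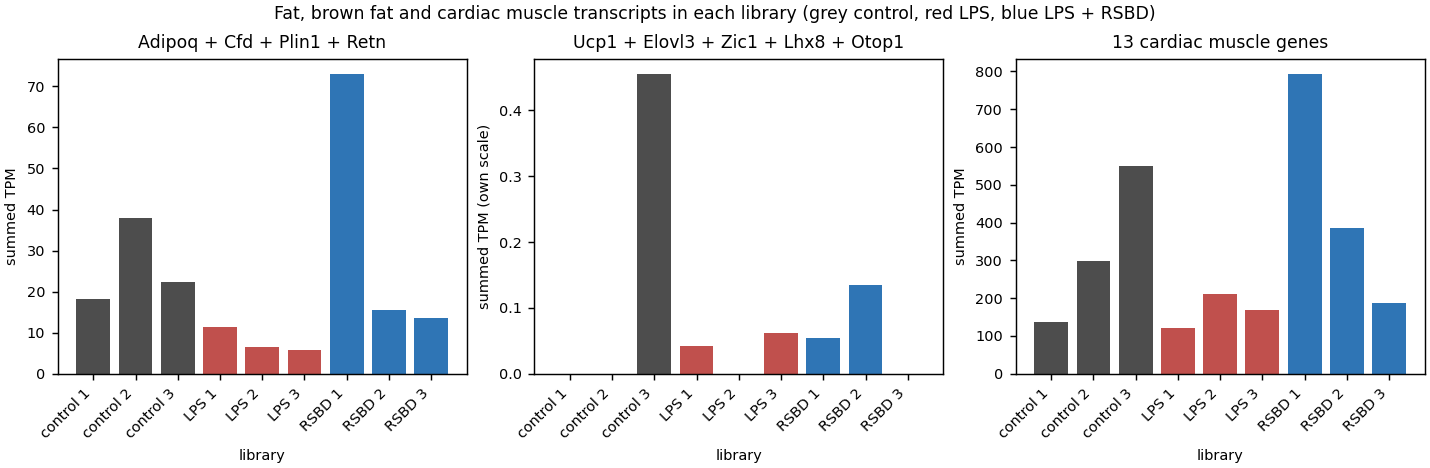
Summed TPM in each library (bars from 0) of Adipoq, Cfd, Plin1 and Retn (left), of 5 brown adipocyte genes on a scale of its own (middle) and of 13 cardiac muscle genes (right), with the genes of the left and middle panels chosen after their values were seen. RSBD 1 is highest at left (73.0, of which Cfd gives 56.4) and right (793), while control 3 is highest in the middle (0.454), where RSBD 1 has 0.0537. Each gene at left was highest in RSBD 1, and the middle genes are those of the brown list that failed the filter on low counts. The contrast of these panels follows from that choice.

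Ucp1, Elovl3, Zic1 and Lhx8, which are typical of brown fat, had no reads in RSBD 1, where Adipoq peaked. Otop1, of the same kind, had its most reads there. Of 20 brown adipocyte genes, 15 passed the filter on low counts. The 5 that failed it are typical of brown fat and were picked after their values were seen. That they were close to absent follows from this choice and is not a separate observation. Zic1, a transcription factor of brown precursors, had 0 reads in all libraries. Elovl3, a fatty acid elongase of brown fat, had 6 reads in control 3, 2 in LPS 3 and 0 elsewhere. Lhx8, a transcription factor marking classical brown fat, had 4 reads, all in control 3, and Otop1 had 4 in RSBD 1 and 2 in LPS 1. Ucp1, Elovl3, Zic1, Lhx8 and Otop1 together reached 0.454 TPM in control 3, 0.134 in RSBD 2 and at most 0.0614 in the other 7 libraries. Of all 20 brown genes, 6 had their highest CPM in RSBD 1, as had 9.09% of all tested genes. Without Cox7a1, Cox8b, Fabp3 and Cpt1b, which heart or muscle shares, 4 of 16 did. Of all 28 white genes, tested or not, 15 had their highest CPM in RSBD 1, 13 of them among the 26 tested.

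Control 3 also had the highest level of Cidea, the droplet protein of brown fat, with 4.41 CPM against 0.78 to 2.71 in the others, and the highest Plin4 and Fabp4. Its Adipoq (24 reads) was lower than in 6 of the other 8 libraries. Ucp1, Elovl3 and Lhx8 rest on 4 to 6 reads each in control 3, so no difference between groups can be read from them. The remaining brown genes on the list are active in other cells too, such as Prdm16 at 31.5 to 42.1 CPM and the potassium channel gene Kcnk3 at 22.1 to 34.8 CPM. The whole brown list did not separate these libraries, with 120 TPM in both control 3 and RSBD 1 and 77.7 to 99.2 in the others. The whole white list was highest in RSBD 3 (971 TPM). Fabp3, a fatty acid carrier shared with heart, contributed 15.8 TPM in control 3 and 18.8 in RSBD 1.

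Other genes of adipocytes differed between LPS and control lungs in both directions. On the white list, 2 of 26 fell and 0 rose (median -0.3, against -0.01 over all genes): Plin4 and Adrb3. Of all genes tested 8.63% fell and 8.79% rose, so the count on this list is near the background. The brown, lipolysis, triglyceride, adipogenic, adipokine, lipofibroblast and stroma lists that follow had 0 to 3 genes called each. Their counts stand against the same shares. Adrb3, the beta-3 adrenergic receptor that switches on lipolysis in fat, measured 19.4, 15 and 17.9 CPM in control, 8.92, 8.88 and 10.3 in LPS and 12.2, 10.9 and 10.4 in RSBD libraries. It fell by 0.90 ± 0.14 in LPS (edgeR adjusted p = 0.00576) and by 0.64 ± 0.14 in LPS plus RSBD against control (adjusted p = 0.0385), and RSBD 1 did not stand out. The 3 groups did not overlap for Adrb3, whereas they did for Adipoq.

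On the brown list, 2 of 15 fell and 1 rose (median -0.26). Cidea fell by 1.38 ± 0.39 (adjusted p = 0.0373) and Cpt1b, the muscle and brown fat enzyme that passes fatty acids into mitochondria, by 1.21 ± 0.31 (adjusted p = 0.0288). Acot2, a mitochondrial thioesterase, rose by 0.63 ± 0.13 in LPS (adjusted p = 0.0126) and by 0.75 ± 0.13 in LPS plus RSBD against control (adjusted p = 0.0161).

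Of 13 tested lipolysis genes, 2 rose and 1 fell in LPS (median 0.05). Pde3b, the phosphodiesterase through which insulin restrains lipolysis, rose by 0.48 ± 0.15 (adjusted p = 0.0477) and Prkar2b, a regulatory subunit of protein kinase A, by 0.76 ± 0.23 (adjusted p = 0.0493). Of 15 genes of triglyceride synthesis, 1 fell and 0 rose (median -0.27), namely Acaca, acetyl-CoA carboxylase, by 0.50 ± 0.14 (adjusted p = 0.0382). Of 13 adipogenic factors, 1 rose and 2 fell (median -0.06). Pparg, the master regulator of fat cell formation that alveolar macrophages also require, rose by 0.87 ± 0.20 (adjusted p = 0.0208). It is also counted on the list of 12 alveolar macrophage markers, of which 7 rose, where 8.79% of all genes did. The part of these cells in the Pparg values was not tested. Pparg levels were 8.54 to 9.82 CPM in control, 11.3, 18.0 and 20.1 in LPS and 11.2, 13.5 and 11.7 in RSBD libraries, with no peak in RSBD 1. Mlxipl, a glucose-sensing activator of lipogenesis, fell by 1.18 ± 0.22 in LPS (adjusted p = 0.00921) and by 1.05 ± 0.22 in LPS plus RSBD against control (adjusted p = 0.0318). Srebf1, which drives fatty acid synthesis genes, fell by 0.47 ± 0.09 (adjusted p = 0.0123). Of 13 tested adipokines and receptors 0 were called in any comparison. Lipofibroblasts are the lipid-laden fibroblasts of the lung itself. Of their 10 marker genes 2 rose, Gyg (0.87 ± 0.14, edgeR adjusted p = 0.00603) and Tcf21 (0.80 ± 0.20, adjusted p = 0.0264), and 0 fell (median 0.01). Of 12 genes of the stroma of fat 0 rose and 1 fell, F3 (-0.89 ± 0.16, adjusted p = 0.00841), with a median of 0.07, and their sum was 1420 CPM in RSBD 1 and 1100 to 1500 in the other libraries. Between LPS plus RSBD and LPS, edgeR called no gene of any of these lists, and among the members DESeq2 called Plin4.

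Some markers of other lung cells differed as well. Of all genes tested, 8.79% rose and 8.63% fell in LPS against control. In that comparison, 7 of 12 alveolar macrophage genes rose, with Abcg1 (0.73 ± 0.09, edgeR adjusted p = 0.00282) and Ear2 (1.51 ± 0.25, adjusted p = 0.00753) first by p. In LPS plus RSBD against control 3 of the 12 rose, led by Itgax (1.28 ± 0.22, adjusted p = 0.0234), where 1.89% of all genes rose. Of 13 neutrophil genes 2 rose in LPS, the granule protein genes Ngp (3.33 ± 0.87) and Camp (2.80 ± 0.76), with adjusted p = 0.034 and 0.0371. Of 12 capillary endothelial genes 3 rose, led by Gpihbp1 (0.67 ± 0.11) and Cdh5 (0.53 ± 0.10), with adjusted p = 0.00621 and 0.00906. Of 8 mesothelial genes 1 fell in LPS, Msln by 1.87 ± 0.56 (adjusted p = 0.0483), though its LPS and control libraries overlapped. Of the 9 lung marker genes 1 fell, Foxj1 of ciliated cells by 0.96 ± 0.28 (adjusted p = 0.0453). The part of these cells in the adipocyte values was not tested.

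The gene families of the members held relatives with far higher lung levels. Retn at 0.543 to 4.13 TPM stood beside Retnla, a product of lung epithelium and macrophages, at 51.0 to 436 TPM and Retnlg, a neutrophil gene, at 98.7 to 1890 TPM. Retnlg was lowest in RSBD 1, where Retn was highest. Plin2, the perilipin of most cell types, measured 101 to 192 TPM and Plin3 26.7 to 29.8, against 0.223 to 4.41 for Plin1. Fabp5, the epidermal fatty acid carrier, measured 107 to 229 TPM against 11.5 to 34.6 for Fabp4. Ucp2, the uncoupling protein of immune cells, measured 148 to 283 TPM where Ucp1 did not exceed 0.144. Ucp3, the muscle form, rose in LPS by 0.98 ± 0.25 (edgeR adjusted p = 0.0294). Of the 12 lipid droplet genes, Bscl2, the seipin gene, rose by 0.43 ± 0.09 (adjusted p = 0.0127), and Plin4 and Cidea fell.

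Likeness to the members was measured over the 9 libraries. The pattern was taken as the mean of centred log2 CPM of Adipoq, Plin1 and Cidec, and likeness as the root mean square difference from it. The closest genes were Erbb4, a receptor of neuregulins (0.255), Tenm4, a teneurin (0.347), and Thrsp (0.349). Tmem190, Cers1, Prr16, Gabrb1, Gm32742, Cacna1i and Eda2r followed at 0.385 to 0.415. Erbb4 lay at only 0.254 to 1.04 CPM, and the log2 values carry a prior count of 2, which narrows differences at low levels. The closest member was Plin1 at 0.423, though Plin1, like Adipoq and Cidec, is part of the reference. Cidec itself lay 0.676 away and Adipoq 0.534, so this reference mixes different patterns. With a reference of Adipoq and Plin1 alone, a choice made after the values were seen, Cd209f was the closest gene outside the members (0.346). Cd209f is a C-type lectin gene of macrophages. Kcnf1 (0.428), Tmem190 (0.497) and Thrsp (0.536) followed. Mypn, Adcyap1r1, Erbb4, Mroh8, Igdcc4, Otx1, Rnf207, Gm32742, Dsc2 and Gjb5 came next at 0.552 to 0.643. Car3 (0.648) was the last of the 15 listed. Cfd was 0.447 from that reference, Plin4 0.786, Retn 0.787, Cidec 1.01, Fabp4 1.01, Pnpla2 1.03 and Lipe 1.1.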

How the data were processed

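Lung RNA was measured by strand-specific mRNA sequencing in 9 libraries, 3 per group, each a separate mouse per the labels. The tools named in the submitters' processing notes were HISAT2 2.2.1, fastp 0.23.2, DESeq2 1.38.3 and StringTie 2.2.0, and the genome build was GRCm38 (mm10). The sources used here do not name the counter or the annotation. The authors deposited estimated counts (expected counts) per gene, whole numbers that needed no rounding, and TPM values for the same genes. Columns were matched to libraries by title and replicate number, with RS taken as the start of RSBD.

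Counts were fitted here with edgeR 4.0.16 in R 4.3.3: filterByExpr (minimum count 10, minimum total 15) kept 15636 genes, TMM scaling was used, and all 9 libraries entered a robust quasi-likelihood fit with group as the factor. P-values are 2-sided and adjusted by Benjamini-Hochberg over all tested genes (threshold 0.05), and SE is the fold change over the root of the F statistic. The median SE was 0.15. The scripts were tested on simulated data. The 10 genes and all lists were chosen with earlier results of these data known, so no test over a list was made. Named genes are the members, their families, the up to 2 called genes with the smallest p per list and comparison, and the genes most like the members. Other genes are named where a list had at most 3 called or where a level is described, and were chosen after their values were seen. CPM use TMM scaling over tested genes. Alternatives were no filter, other scalings, DESeq2 1.42.0, limma-trend 3.58.1 on log2(TPM + 1) or log2(TPM + 0.1) with at least 1 TPM in 3 libraries or no filter, the 2 groups alone, a replicate block and leaving out each library.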

Additional observations from a re-analysis of the deposited data

How the results depend on the processing

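Of the 9 tested members, calls changed for Plin4 and Cfd only, over 18 alternatives per comparison. In LPS against control, Plin4 kept its direction in all 18 (-1.11 to -0.66) and its call in 14. Beside the libraries named above, that call was lost with limma on unfiltered log2(TPM + 1) (-0.79, adjusted p = 0.0641). Cfd gained a call with DESeq2 (adjusted p = 0.03), in the fit of 2 groups (0.00963) and without RSBD 1. Members called in LPS against control numbered 1, and 2 with DESeq2 or in the fit of 2 groups, 0 with unfiltered limma and 0 to 2 without a library. In LPS plus RSBD against LPS they numbered 0, and 1 with DESeq2.

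All genes called in LPS against control numbered 2723 (1374 higher), 1532 with unfiltered limma (513 higher), 2049 with limma on log2(TPM + 1) (711 higher) and 786 to 2870 without a library. The lowest counts came without LPS 2 (786), control 2 (892), control 3 (999) and LPS 3 (1631). In LPS plus RSBD against LPS they numbered 0, 153 with DESeq2, 1 with limma on log2(TPM + 1) or log2(TPM + 0.1), 1 in the fit of 2 groups and 0 to 4 without a library. In LPS plus RSBD against control they numbered 578, 1699 with DESeq2, 308 and 307 with limma at pseudocounts 1 and 0.1, 137 with unfiltered limma, and 94 to 961 without a library. The cause of these shifts was not tested.

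With the replicate block, genes called were 1828, 0 and 240 in the 3 comparisons and members called 1, 0 and 0. Libraries of the same number had correlations of deviations from -0.215 to 0.122, and those of different numbers from -0.164 to 0.19. The numbers were not taken to pair mice. Relative to the median of the other 8 libraries, the white list sum of RSBD 1 was 1.09-fold, 1.08 without Fabp4 and Pnpla2, 1.01 in CPM and 1.3 without Ces1d, an alternative added after seeing the data. The brown list sum was 1.28-fold, 1.09 without genes shared with heart and 1.14 in CPM. Adipoq, Plin1 and Retn rest on 10 to 219 reads a library and Ucp1 on at most 4, which limits what can be told of them.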
